A study of Mus musculus with 8 samples.

Results

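The genes described here are 36 mouse genes of the unfolded protein response and of protein folding in the endoplasmic reticulum (ER). Each was read from the rows of the deposited table whose platform annotation gives that symbol and no other. Where a gene had more than 1 such row, the brightest on average over the arrays was used. All 36 of 36 had such a row, out of 19938 genes measured in this way on 21789 rows.

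RNA came from sorted bone marrow progenitors of mice that lack or keep Cbfb, the partner subunit that all RUNX transcription factors need for stable DNA binding. KO mice were Vav1-iCre x Cbfb(F/F), with 2 floxed alleles, and Het mice were Vav1-iCre x Cbfb(F/+), with 1 floxed allele and 1 intact allele. Every animal was 7 weeks old, on a C57BL6 background, and carried the same Cre, which the Vav1 promoter drives throughout the blood system, so Het animals can lose 1 allele too, and no animal without Cre stands beside them. Granulocyte-monocyte progenitors (GMP) and LSK cells, the lineage-negative Sca-1+ c-Kit+ fraction that holds the stem and multipotent progenitor cells, were sorted separately, about 200000 cells at a purity above 98%. The 4 groups were KO GMP, Het GMP, KO LSK and Het LSK, each with 2 arrays from 2 mice per genotype. The labels do not say which GMP array and which LSK array came from the same mouse.

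The ER is where secreted and membrane proteins are threaded through a membrane channel, folded by chaperones, given disulfide bonds and sugar chains, and, if they fail to fold, pulled back out for degradation. When unfolded protein builds up, 3 membrane sensors respond: Ern1 (IRE1) cuts the Xbp1 messenger RNA so that it encodes an active transcription factor, Atf6 is released and cleaved into another, and Eif2ak3 (PERK) slows protein synthesis while favouring translation of Atf4. XBP1 and ATF6 are known to raise chaperone and degradation genes, and ATF4 raises genes of amino acid supply and of the later stress response. Granulocyte-monocyte progenitors begin to make large amounts of secretory granule protein, which passes through the ER.

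Values are log2 levels that the authors made by robust multi-array averaging (RMA), and every difference below is in log2 units, so 1 unit is a 2-fold change. A difference is said to pass the test, or to be higher or lower in a count, at an adjusted p under 0.05 in limma's moderated test over all 21789 rows. The arrays were alike in scale, with medians of 4.92 to 5.09 over the tested rows, and correlated at 0.990 to 0.995 within groups and 0.955 to 0.983 between groups. Cbfb itself averaged 6.72 in KO GMP and 7.59 in Het GMP (adjusted p = 0.0130), and 6.96 in KO LSK and 7.56 in Het LSK (adjusted p = 0.0557). All 8 granulocyte-monocyte markers measured were higher in GMP than in LSK in Het, and 7 of the 8 were in KO, where Csf1r did not pass. All 7 measured stem and progenitor markers were lower in GMP than in LSK in Het, and 4 of 7 were in KO. Megakaryocyte markers stood apart in KO: all 6 measured were higher in KO GMP than in Het GMP, with array means of 8.73 to 9.12 in KO GMP and 5.49 to 5.78 in Het GMP. In LSK their array means were 8.01 to 8.17 in KO and 6.86 to 6.91 in Het. RNA from bulk sorted cells cannot tell fewer cells of a type from less RNA per cell.

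The main pattern of the 36 genes was a higher level in GMP than in LSK in both genotypes. In KO, 19 of 36 (52.8%) were higher in GMP and 0 were lower, against 3.66% higher and 2.39% lower among all rows. Within Het, 27 of 36 (75%) were higher in GMP and 2 were lower, against 7.9% higher and 9.6% lower among all rows. The median difference of the 36 was 0.58 in KO and 0.81 in Het, and that of all rows was -0.02 in KO and 0.01 in Het. All 19 genes that passed in KO also passed in Het, which makes them 100% of the KO genes and 70.4% of the 27 Het genes. Over all rows, too, more passed in Het (3813 in either direction) than in KO (1318). The matching overlap over all rows is not given here. With limma's test, 26 of the 36 in KO and 32 in Het had an unadjusted p under 0.05. The share of all rows at that level is not given either. Subtracting each array's median would move the GMP against LSK difference of every row by 0.16 in Het and by 0.02 in KO, well under the medians above.

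**Figure D1:**
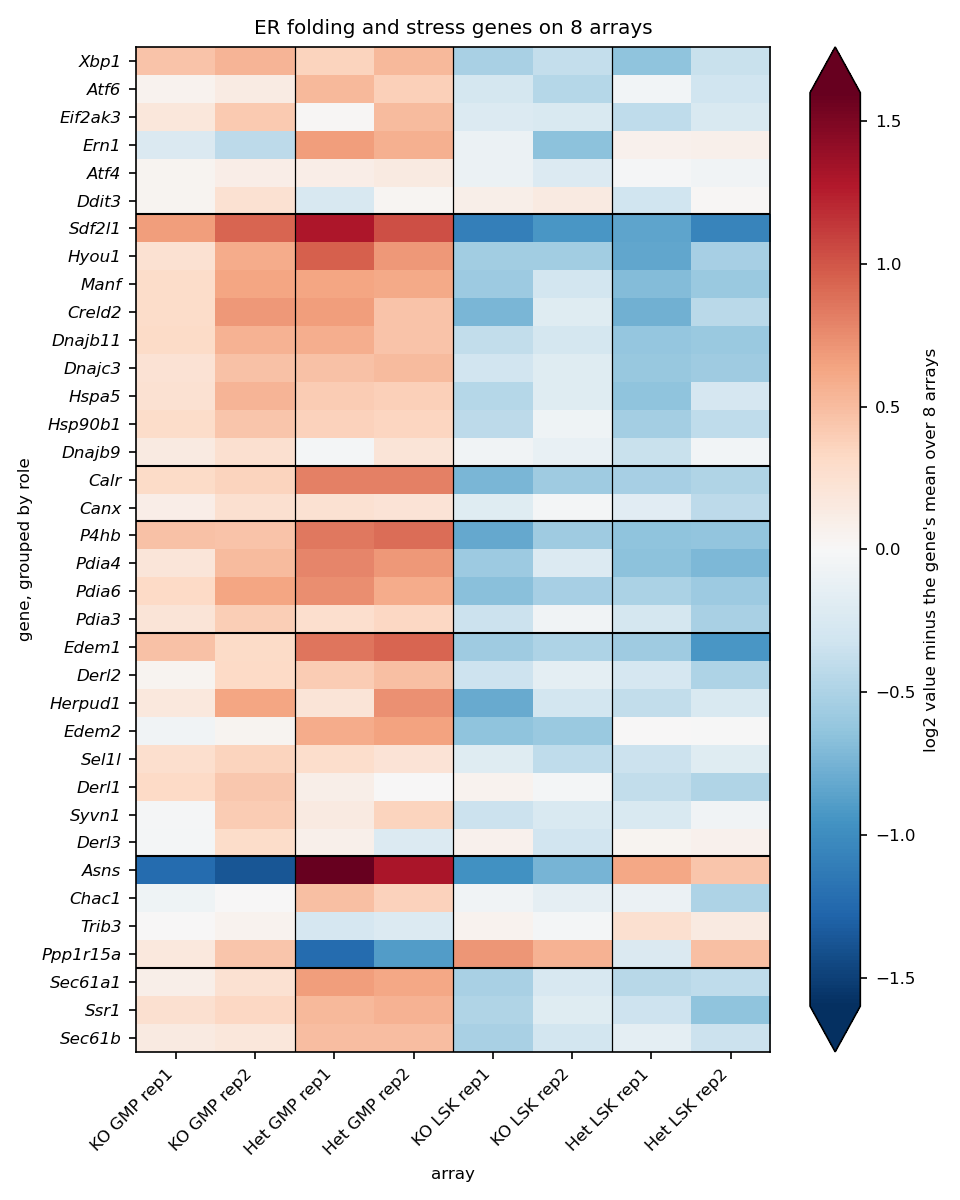
Log2 level of each of the 36 genes on each of the 8 arrays, shown as the difference from that gene's mean over the arrays, with genes grouped by role and arrays in the order KO GMP, Het GMP, KO LSK, Het LSK. Most chaperones, disulfide isomerases and translocation genes were above their mean on all 4 GMP arrays and below it on all 4 LSK arrays, and Asns was high on the Het arrays and low on the KO arrays of both cell types.

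Of the chaperones of the ER lumen, 8 of 9 were higher in GMP in KO and 8 of 9 in Het. Sdf2l1, a partner of the chaperone system built around BiP, had the largest difference of the 36 genes in both genotypes. Its levels were 9.37 and 9.63 in KO GMP, against 7.61 and 7.77 in KO LSK. The Het arrays gave 9.99 and 9.73 in GMP, against 7.86 and 7.65 in LSK. All 4 GMP arrays thus lay above all 4 LSK arrays, and the difference was 1.81 ± 0.15 (SE) in KO (3.51-fold, limma adjusted p = 0.000218) and 2.11 ± 0.15 in Het (4.31-fold, adjusted p = 3.56e-05).

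Hspa5 encodes BiP, the central ER chaperone that also holds the sensors inactive. KO GMP had 10.65 and 10.95, against 9.95 and 10.21 in KO LSK, and Het GMP had 10.81 and 10.79, against 9.76 and 10.14 in Het LSK. The cell types did not overlap, with a difference of 0.72 ± 0.17 in KO (adjusted p = 0.0407) and 0.85 ± 0.17 in Het (adjusted p = 0.00817). Within GMP and within LSK, the KO and Het values of Hspa5 overlapped.

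Hyou1, a large luminal chaperone that helps BiP exchange its nucleotide, had 8.06 and 8.42 in KO GMP, against 7.26 and 7.26 in KO LSK (0.97, adjusted p = 0.00983). In Het it had 8.77 and 8.51 in GMP, against 6.99 and 7.28 in LSK (adjusted p = 0.000346), again without overlap. Manf, a small BiP-binding protein that can also be secreted, differed by 0.90 and 1.27 in KO and Het. Dnajb11 and Dnajc3, which deliver unfolded protein to BiP, differed by 0.77 and 0.60 in KO and by 1.12 and 1.08 in Het. Hsp90b1, the ER member of its heat shock protein family, and Creld2, a protein known as an ER stress marker, also passed in both genotypes. Dnajb9, another BiP co-chaperone and an XBP1 target, was the member of this set that did not pass, with differences of 0.29 in KO and 0.29 in Het.

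Among the lectin chaperones, which bind the sugar chains of new glycoproteins, Calr passed in both genotypes and Canx in Het. Calr (calreticulin, the soluble form) had 10.37 and 10.42 in KO GMP, against 9.33 and 9.50 in KO LSK, a difference of 0.98 ± 0.12 (adjusted p = 0.00141). Het GMP had 10.87 and 10.87, against 9.53 and 9.59 in Het LSK, a difference of 1.31 ± 0.12 (adjusted p = 9.72e-05). Canx (calnexin, the membrane-bound form) differed by 0.29 in KO (adjusted p = 0.277) and by 0.53 in Het (adjusted p = 0.0246).

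Disulfide isomerases, which make and rearrange the bonds between cysteines, were higher in GMP for 3 of 4 genes in KO and 4 of 4 in Het. P4hb, the classical protein disulfide isomerase, had 10.50 and 10.49 in KO GMP, against 9.22 and 9.46 in KO LSK. In Het its levels were 10.88 and 10.92 in GMP, against 9.38 and 9.40 in LSK. Those are differences of 1.16 ± 0.12 in KO (2.23-fold, adjusted p = 0.000773) and 1.51 ± 0.12 in Het (2.85-fold, adjusted p = 6.25e-05), each larger than the gap between the 2 arrays of any group. Pdia6 differed by 1.08 in KO and 1.21 in Het, and Pdia4 by 0.75 in KO and 1.42 in Het. A dimmer second row of Pdia4 passed in Het (1.00, adjusted p = 0.0402) and not in KO (0.42). Pdia3, which works with the lectin chaperones, differed by 0.50 in KO (adjusted p = 0.0902) and 0.70 in Het (adjusted p = 0.0110).

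All 3 translocation genes were higher in GMP in both genotypes. Sec61a1 forms the channel through which new proteins enter the ER, and it differed by 0.56 ± 0.13 in KO and 1.07 ± 0.13 in Het. Sec61b, a small subunit of the same channel, differed by 0.57 and 0.74 in KO and Het. Its 2 other rows passed in Het (adjusted p = 0.0117 and 0.00696) and not in KO (adjusted p = 0.0943 and 0.0547). Ssr1, of the complex that sits beside the channel, differed by 0.63 in KO and 1.02 in Het.

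ER-associated degradation removes proteins that fail to fold, and 3 of its 8 genes were higher in GMP in KO and 5 of 8 in Het. Edem1, a mannosidase-like protein that marks misfolded glycoproteins, had 7.95 and 7.78 in KO GMP, against 6.92 and 6.99 in KO LSK (0.91 ± 0.14, adjusted p = 0.00689). Het GMP had 8.34 and 8.41, against 6.91 and 6.55 in Het LSK (1.64 ± 0.14, adjusted p = 9.92e-05). Edem2, its relative, differed by 0.61 in KO and 0.61 in Het, and Sel1l, the adaptor of the ligase Syvn1, by 0.61 and 0.52. Derl1 and Derl2, membrane proteins of the exit channel, passed in Het (0.49 and 0.83) and not in KO (0.36 and 0.43). Herpud1, a scaffold of the ligase complex, missed the threshold in KO (0.95, adjusted p = 0.0519) and in Het (0.79, adjusted p = 0.0512), and Syvn1 and Derl3 also did not pass.

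Of the 6 sensors and transcription factors, 1 was higher in GMP in KO and 3 were in Het. Xbp1, whose product drives the secretory programme, had 8.38 and 8.47 in KO GMP, against 7.40 and 7.54 in KO LSK. The Het arrays gave 8.28 and 8.44 in GMP, against 7.28 and 7.57 in LSK. Its difference was 0.95 ± 0.14 in KO (adjusted p = 0.00434) and 0.93 ± 0.14 in Het (adjusted p = 0.00173), with the genotypes overlapping in both cell types. A row of this array sums over the whole Xbp1 transcript and does not separate the spliced from the unspliced form. Atf6 differed by 0.46 in KO (adjusted p = 0.0976) and 0.64 in Het (adjusted p = 0.0120), and Eif2ak3 by 0.53 in KO (adjusted p = 0.126) and 0.59 in Het (adjusted p = 0.0457). Atf4 and Ddit3, the transcription factors downstream of PERK, differed by at most 0.23 in either genotype and did not pass.

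The 4 targets of the ATF4 branch did not share this direction. None of them passed between GMP and LSK in KO. In Het, Asns and Chac1 were higher in GMP by 1.09 and 0.71, while Ppp1r15a and Trib3 were lower by 1.19 and 0.45. Chac1 encodes an enzyme that degrades glutathione and Trib3 a pseudokinase of the late stress response. Asns and Ppp1r15a are described below with the comparison of genotypes.

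**Figure D2:**
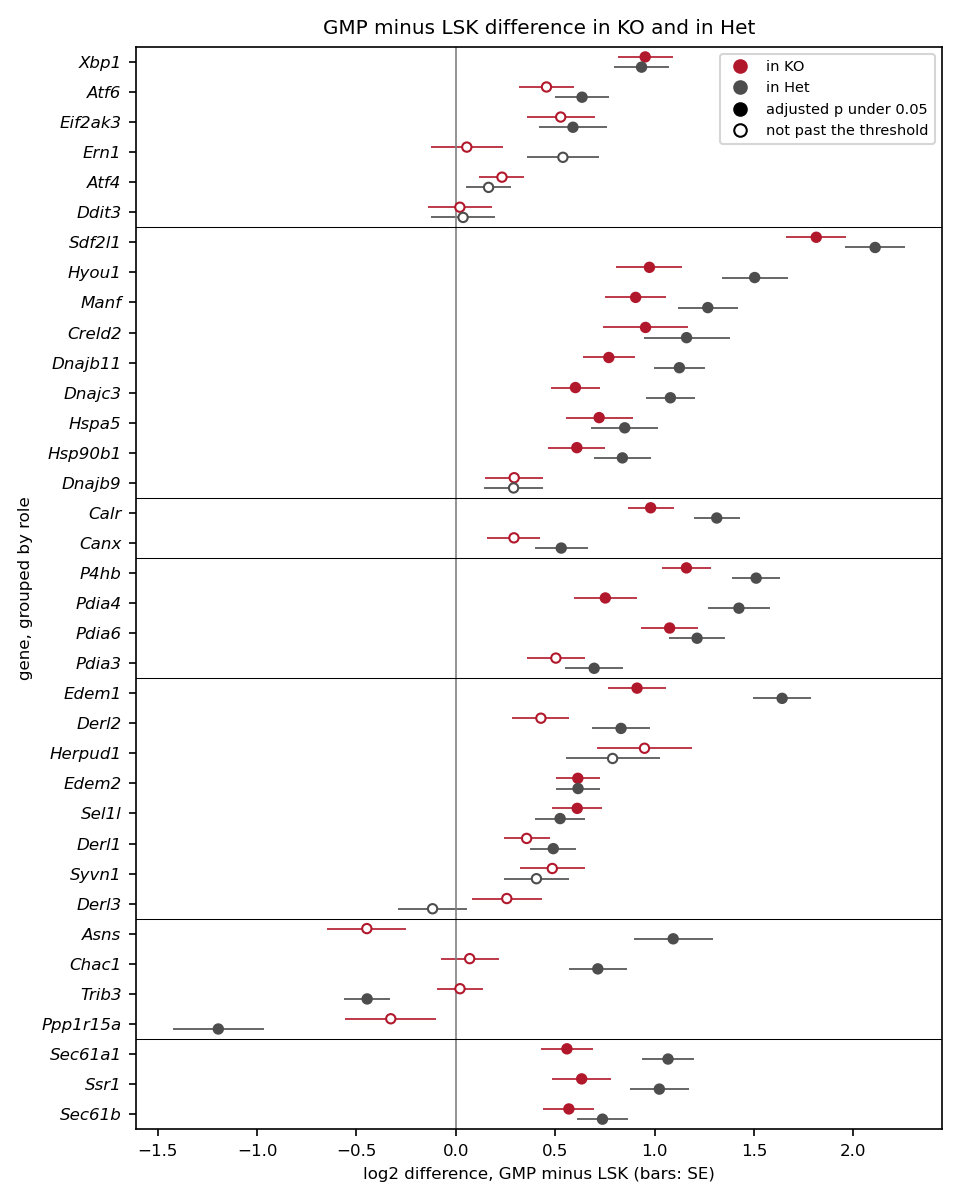
Log2 difference between GMP and LSK for each of the 36 genes, in KO and in Het, with bars for limma's standard error and filled points for an adjusted p under 0.05. In KO 19 genes passed, all of them higher in GMP, and in Het 27 genes were higher and 2 were lower in GMP.

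How many genes passed depended on single arrays in KO, where 19 passed with all 8 arrays. The count was 6 without KO GMP replicate 2, 9 without KO GMP replicate 1, and 11 without replicate 1 of KO LSK or either array of Het GMP. Calr, P4hb, Pdia6, Sdf2l1 and Xbp1 passed in KO under every alternative run, and 18 of the 29 Het genes did so in Het. Granulocyte-monocyte markers moved with the same comparison, at array means of 10.40 to 10.59 in KO GMP and 7.32 to 7.74 in KO LSK, and of 10.86 to 10.90 in Het GMP and 7.53 to 7.81 in Het LSK. Their part in the result was not tested.

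Many of the chaperone genes that were high in GMP are known targets of ATF6 and XBP1, which act through the ER stress element, a CCAAT box separated by 9 bases from CCACG. RefSeq promoter windows (assembly GRCm38.p6, 250 bases before to 50 after each annotated start) were matched by symbol for 31 of the 36 genes. Atf6, Derl1, Hyou1, Manf and Sec61a1 were not matched. The element, searched as CCAAT, any 9 bases and CCACG on both strands, was found in 9 of the 31 genes (29.0%), against 37 of all 27025 genes with a window, these included (0.137%). The 36 were listed as genes of this response, so a share above that of all genes comes with the choice. It says nothing about the level in GMP. The 9 genes were Calr, Canx, Creld2, Derl3, Dnajc3, Hsp90b1, Hspa5, Pdia6 and Syvn1, and Hsp90b1 held 2 matches. The matches began 44 to 212 bases before the start. They are printed 5′ to 3′ on the strand that reads CCAAT first, with 15 bases on each side, to show the shared letters in capitals and the unlike letters between and around them.
Hspa5 (chr2:34772010-34772058, plus strand): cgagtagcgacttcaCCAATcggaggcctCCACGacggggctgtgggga
Calr (chr8:84847060-84847108, plus strand): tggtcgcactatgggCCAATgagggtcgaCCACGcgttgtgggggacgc
Derl3 (chr10:75893227-75893275, minus strand): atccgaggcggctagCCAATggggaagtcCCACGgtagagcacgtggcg
Hsp90b1 (chr10:86705623-86705671, minus strand): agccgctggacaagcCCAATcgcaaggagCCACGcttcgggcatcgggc
Hsp90b1 (chr10:86705518-86705566, plus strand): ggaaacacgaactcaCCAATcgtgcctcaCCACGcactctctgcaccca
Canx (chr11:50325785-50325833, minus strand): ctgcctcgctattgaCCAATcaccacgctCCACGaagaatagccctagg
Pdia6 (chr12:17266476-17266524, plus strand): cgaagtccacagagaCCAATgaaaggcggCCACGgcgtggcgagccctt
Dnajc3 (chr14:118937812-118937860, plus strand): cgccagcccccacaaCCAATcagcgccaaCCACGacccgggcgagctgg
Creld2 (chr15:88819505-88819553, minus strand): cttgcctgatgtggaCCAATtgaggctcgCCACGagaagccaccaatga
Syvn1 (chr19:6046517-6046565, plus strand): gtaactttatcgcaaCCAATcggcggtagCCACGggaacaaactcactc

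Of these 9 genes, 6 were among the 19 that passed between GMP and LSK in KO (Calr, Creld2, Dnajc3, Hsp90b1, Hspa5 and Pdia6), and these 6 and Canx were among the 27 that were higher in Het. Derl3 and Syvn1 held the element and passed in neither genotype. Sdf2l1, P4hb and Edem1, with some of the largest differences, had a window without a match to these letters. Of all 36 genes, with or without the element, 52.8% were higher in GMP in KO and 75% in Het. Whether genes with the element passed more often than the rest was not tested. Of the 10 matches, 6 read CCAAT first on the strand of the gene's own transcript and 4 on the opposite one.

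The Hspa5 window shows the element in its setting, since BiP is the best known gene of the response. The 250 bases before its start (chr2:34771840-34772089, plus strand, GRCm38.p6) are given with the element in capitals, which begins 65 bases before the start.
Hspa5 upstream: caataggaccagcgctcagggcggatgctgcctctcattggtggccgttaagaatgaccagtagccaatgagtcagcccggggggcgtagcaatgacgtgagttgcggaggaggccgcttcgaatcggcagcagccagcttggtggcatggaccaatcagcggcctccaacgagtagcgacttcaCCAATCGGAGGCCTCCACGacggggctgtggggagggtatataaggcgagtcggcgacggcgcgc

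A second form, the ER stress element II, has ATTGG, 1 base and CCACG. It was found in Dnajb11 and Herpud1, against 0.0444% of genes with a window. In Herpud1 it began 52 bases before the start (chr8:94386362-94386402, plus strand), in the same window as the ATF4-type element described next.
Herpud1 (chr8:94386362-94386402, plus strand): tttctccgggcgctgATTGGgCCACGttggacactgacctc

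Genes of the ATF4 branch are known to be driven through C/EBP-ATF elements. Searched as TTGCATCA on both strands, the element was in Chac1 and Herpud1, or 6.45% of the 31 genes, against 1.03% of genes with a window. A looser form, TGATG, 1 base and AA, which contains the opposite strand of the first, was added after the windows had been seen. It was in Asns, Chac1, Herpud1 and Trib3 (12.9%), against 4.51% of genes with a window. The core letters TGACGTGG of the unfolded protein response element were in 0 of the 31, against 0.714% of genes with a window. These counts carry no test, and a match of letters is not a bound site. The Asns, Chac1 and Herpud1 stretches are shown, since Asns is the gene with the largest difference between genotypes.
Asns (chr6:7693210-7693247, minus strand): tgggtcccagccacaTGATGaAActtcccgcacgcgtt
Chac1 (chr2:119351034-119351071, plus strand): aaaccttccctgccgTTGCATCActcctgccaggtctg
Herpud1 (chr8:94386302-94386339, plus strand): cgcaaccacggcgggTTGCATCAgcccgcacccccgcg

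**Figure D3:**
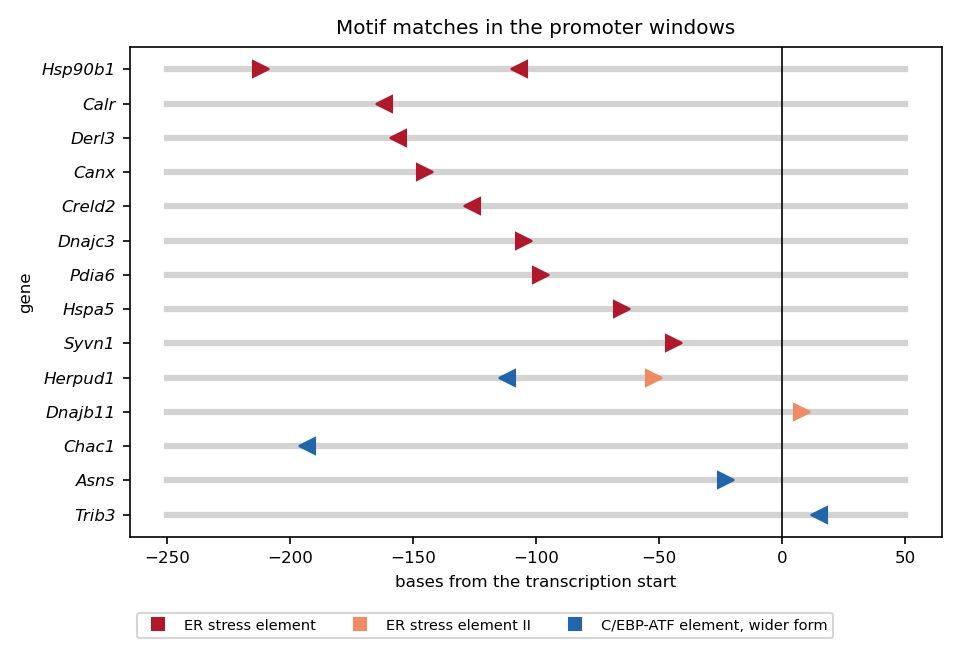
Positions of the motif matches in the promoter windows of the genes that hold any, in bases from the annotated start, with triangles pointing right for a match on the gene's strand and left for the other strand. The ER stress elements of the 9 genes lay between 212 and 44 bases before the start, and the Asns match to the looser C/EBP-ATF form began 23 bases before it.

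Between genotypes few of the 36 genes passed. In GMP, 1 was higher in KO (Ppp1r15a) and 4 were lower (Asns, Ern1, Edem2 and Calr), which is 2.78% and 11.1% of the 36, against 3.45% and 2.57% among all rows. In LSK, 1 was higher in KO (Derl1) and 2 were lower (Asns and Edem2), or 2.78% and 5.56%, against 3.02% and 4.71% among all rows. Median differences were -0.12 in GMP and 0.10 in LSK. The difference was negative for 66.7% of the 36 in GMP, against 53.2% of all rows, and for 41.7% in LSK, against 48.2%. Limma gave 16 of the 36 in GMP and 5 in LSK an unadjusted p under 0.05, a share not given here for all rows. The share that passed in LSK and the share of higher genes in GMP were near those of all rows. With 2 arrays a group, an exact permutation test of a single gene cannot give a p below 0.333, so these calls rest on limma's spread shared over rows.

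**Figure D4:**
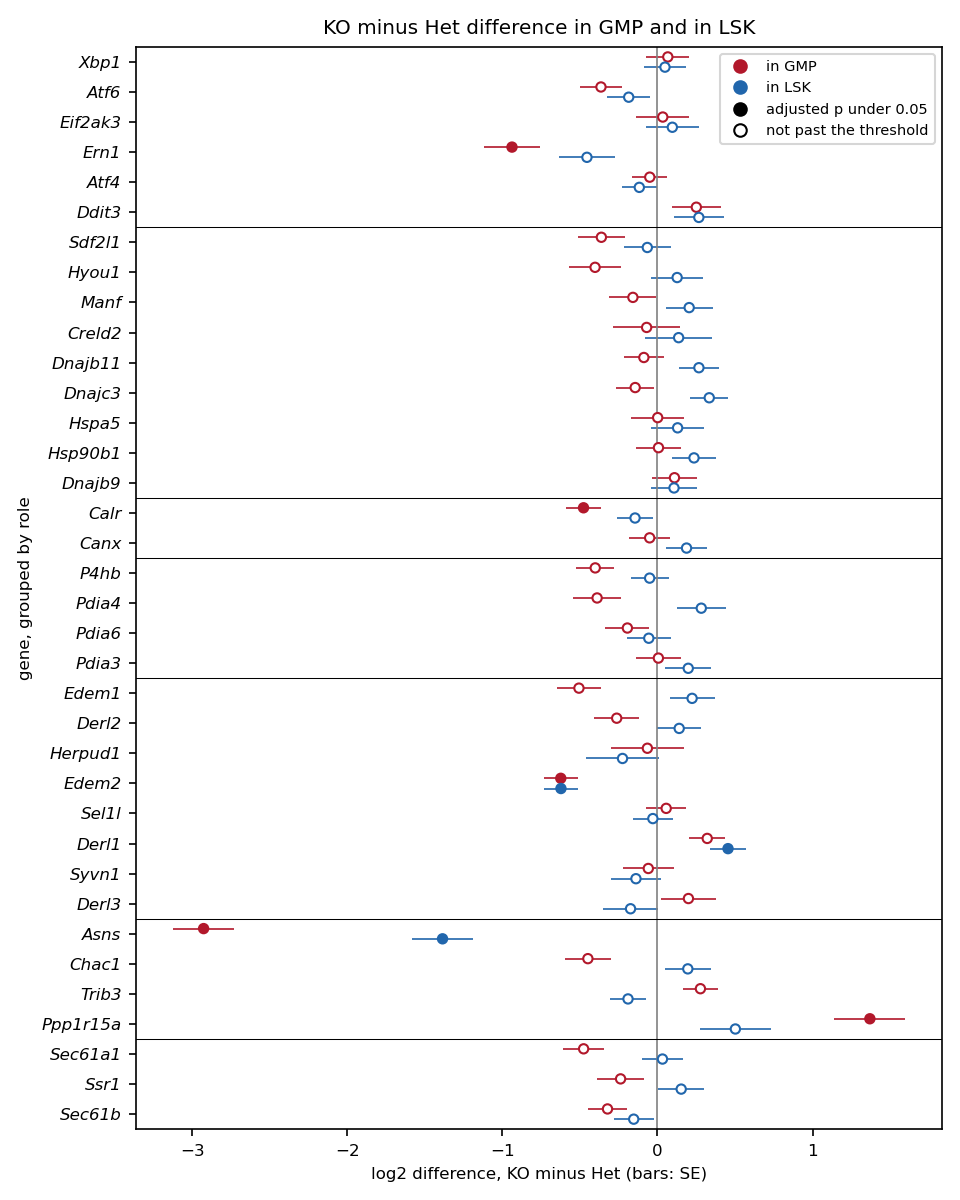
Log2 difference between KO and Het for each of the 36 genes, in GMP and in LSK, with bars for limma's standard error and filled points for an adjusted p under 0.05. In GMP 5 genes passed and in LSK 3, and Asns stood at -2.93 in GMP and -1.39 in LSK.

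Asns, which makes asparagine from aspartate and is a standard ATF4 target, had the largest difference of the 36 genes between genotypes in both cell types. Its levels were 4.27 and 4.14 in KO GMP, against 7.45 and 6.82 in Het GMP. In LSK they were 4.54 and 4.77 in KO, against 6.13 and 5.96 in Het. Each KO array lay below each Het array, and the KO values lay under the array medians, where RMA gives no detection call and can understate a fall.

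The Asns difference was -2.93 ± 0.20 in GMP, or 0.132 times the Het level (limma adjusted p = 6.36e-05). In LSK it was -1.39 ± 0.20, or 0.383 times the Het level (adjusted p = 0.00292). Asns passed in both cell types under all alternatives run. It was also the one member whose genotype difference passed the test between cell types, with a GMP effect lower than the LSK effect by 1.54 ± 0.28 (adjusted p = 0.0266), against 2.29% of all rows that passed that test in either direction. It missed the threshold when 1 array was left out: at an adjusted p of 0.0631 or 0.108 for replicate 1 or 2 of Het LSK, 0.0692 for replicate 2 of KO LSK, 0.0588 for replicate 1 of Het GMP, and 0.0713 or 0.107 for replicate 1 or 2 of KO GMP. Asns was higher in GMP than in LSK in Het (1.09 ± 0.20, adjusted p = 0.00520), while in KO the difference was -0.45 ± 0.20 (adjusted p = 0.264). The 250 bases before its start (chr6:7693210-7693459, minus strand, GRCm38.p6) are printed with the looser C/EBP-ATF match in capitals.
Asns upstream: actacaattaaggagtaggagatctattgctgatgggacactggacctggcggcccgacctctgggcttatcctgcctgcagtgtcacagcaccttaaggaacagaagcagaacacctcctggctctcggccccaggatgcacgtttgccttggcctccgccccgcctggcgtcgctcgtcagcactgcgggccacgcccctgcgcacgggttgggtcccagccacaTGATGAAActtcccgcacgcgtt

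Chac1, Ppp1r15a and Trib3, the other targets of the ATF4 branch described above, were not lower in KO past the threshold. Among 29 other unfolded protein response genes, described below, limma called 1 lower in KO LSK and 0 in KO GMP. The 1 was Nupr1 (-0.79, adjusted p = 0.00570). Atf4 itself, as messenger RNA, had 8.83 and 8.90 in KO GMP, against 8.90 and 8.93 in Het GMP, and 8.69 and 8.56 in KO LSK, against 8.77 and 8.73 in Het LSK. Its genotype difference was -0.05 in GMP and -0.12 in LSK, and it did not pass in either. Chac1 differed by -0.45 (adjusted p = 0.14) in GMP and 0.20 in LSK, and Trib3 by 0.28 in GMP and -0.19 in LSK. ATF4 protein is controlled by translation, which an array does not measure.

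Ppp1r15a, the phosphatase subunit that ends the PERK signal by restoring protein synthesis, was the member that rose in KO GMP. Its levels were 7.75 and 8.04 in KO GMP, against 6.35 and 6.70 in Het GMP. KO LSK had 8.29 and 8.15, against 7.36 and 8.08 in Het LSK. Het GMP was thus the low group, and the other groups lay between 7.36 and 8.29. The difference was 1.37 ± 0.23 in GMP (2.58-fold, adjusted p = 0.00770) and 0.50 ± 0.23 in LSK (adjusted p = 0.273), and the 2 effects did not pass the test of their difference (0.87 ± 0.32, adjusted p = 0.276). The adjusted p in GMP became 0.0819 when replicate 1 of Het GMP was left out, and 0.0746 when replicate 2 of KO GMP was.

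Immediate early genes, which react to the handling of cells, moved the same way as Ppp1r15a. Of 12 immediate early and heat shock genes measured, 5 were higher in KO GMP than in Het GMP: Egr1 by 3.24, Fosb by 1.40, Dusp1 by 1.13, Jun by 0.93 and Ier2 by 0.87. The heat shock genes of the list did not pass in GMP and had no common direction. Hspa1a differed there by -0.83, Hsph1 by -0.37, Hsp90aa1 by -0.03, Hspa8 by 0.07 and Dnajb1 by 0.26. In LSK limma called 0 of the 12 between genotypes, with 3 at an unadjusted p under 0.05. The list's array means were 9.05 to 9.07 in KO GMP, 8.38 to 8.41 in Het GMP, 9.23 to 9.46 in KO LSK and 9.03 to 9.06 in Het LSK. Their part in the Ppp1r15a result was not tested.

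Ern1, the IRE1 sensor that splices Xbp1, was lower in KO GMP. It had 7.38 and 7.19 in KO GMP, against 8.27 and 8.17 in Het GMP, with no overlap. The KO LSK arrays were unlike each other, at 7.51 and 6.94, against 7.68 and 7.69 in Het LSK. The difference was -0.94 ± 0.18 in GMP (0.522 times the Het level, adjusted p = 0.0160) and -0.45 ± 0.18 in LSK (adjusted p = 0.204). In GMP it missed the threshold, at an adjusted p of 0.0541 or 0.132, without replicate 1 or 2 of KO GMP, and at 0.127 or 0.0813 without replicate 1 or 2 of Het GMP. In LSK Ern1 passed without KO LSK replicate 1, at -0.74 (adjusted p = 0.0201). The total level of its target Xbp1 differed by 0.07 in GMP and 0.05 in LSK. Splicing of Xbp1, on which Ern1 acts, was not measured.

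Edem2 was lower in KO by almost the same amount in both cell types. Its levels were 7.57 and 7.66 in KO GMP, against 8.21 and 8.26 in Het GMP, and 6.98 and 7.03 in KO LSK, against 7.63 and 7.62 in Het LSK. The 2 arrays of each group lay close together and the genotypes did not overlap. The difference was -0.62 ± 0.11 in GMP (adjusted p = 0.0107) and -0.62 ± 0.11 in LSK (adjusted p = 0.00914). Leaving out any 1 GMP array gave an adjusted p of 0.0594 to 0.0941 in GMP, and leaving out Het LSK replicate 1 or 2 gave 0.0570 or 0.0537 in LSK.

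Calr fell by 0.48 ± 0.12 in KO GMP (10.37 and 10.42 in KO GMP, against 10.87 and 10.87 in Het GMP), with an adjusted p of 0.0455. The call was lost under 9 alternatives, with an adjusted p of 0.193 to 0.229 without any 1 of the GMP arrays and of 0.0702 without Het LSK replicate 1 or 2. In LSK Calr differed by -0.14 (adjusted p = 0.570).

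Derl1 was the member that rose in KO LSK, at 8.62 and 8.53 in KO LSK, against 8.16 and 8.08 in Het LSK (0.46 ± 0.12, adjusted p = 0.0478). In GMP it had 8.88 and 8.99 in KO, against 8.66 and 8.57 in Het (0.32 ± 0.12, adjusted p = 0.182). The LSK call was lost without any single array of the 8, with an adjusted p of 0.0790 to 0.212.

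**Figure D5:**
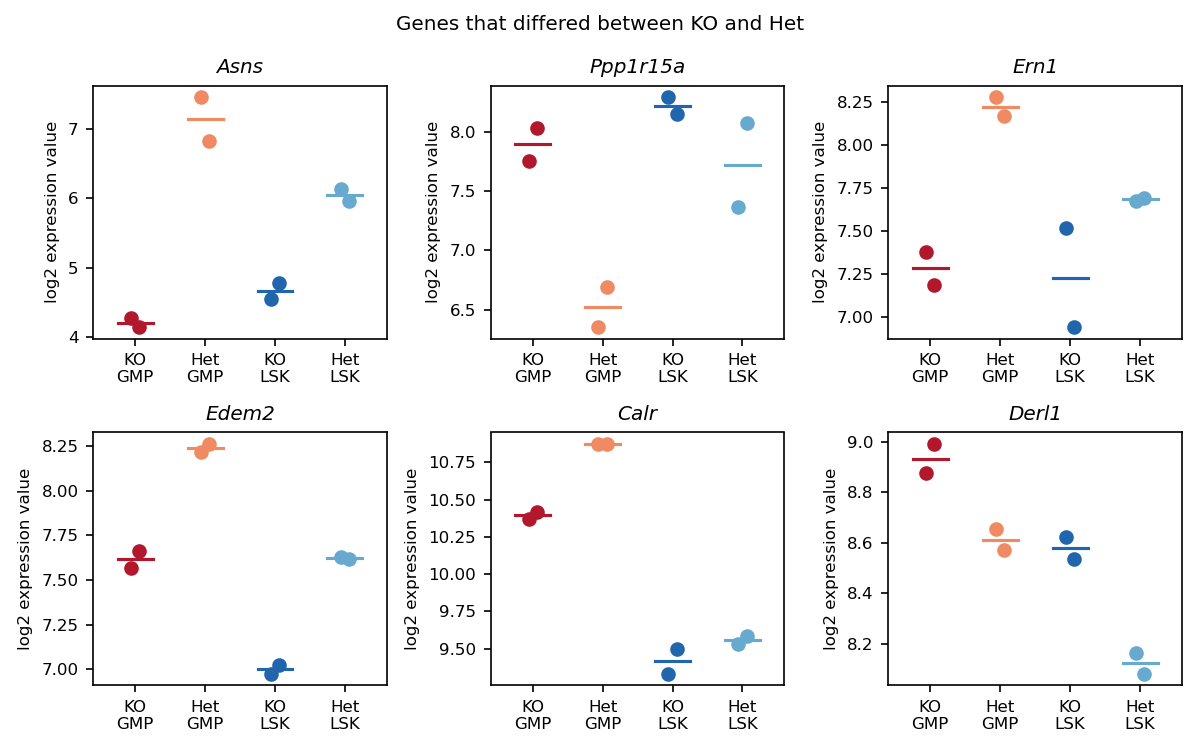
Log2 levels on each array of the 6 genes that passed between KO and Het in GMP or in LSK, with 1 panel a gene, arrays as points and group means as lines, and y axes that differ between panels and do not start at 0. Asns and Edem2 are low in KO GMP and KO LSK, and Ppp1r15a is low in Het GMP.

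Beside these genotype differences in GMP, markers of other cell types differed between the same groups. In GMP the 6 megakaryocyte markers were higher in KO at the array means given above. Of 6 mast cell and basophil markers 1 was higher and 3 were lower in KO GMP, with array means of 5.86 to 6.26 in KO GMP and 6.71 to 6.78 in Het GMP. Of 7 mature neutrophil and monocyte markers 0 were higher and 1 was lower (Ccr2), with array means of 9.19 to 9.66 in KO GMP and 10.17 to 10.74 in Het GMP. Among 5 erythroid markers 2 were higher and 1 was lower, among the 7 stem and progenitor markers 2 were higher and 0 lower, and among the 8 granulocyte-monocyte markers 0 were higher and 1 was lower (Csf1r). Limma called 0 of 8 B cell and plasma cell markers in GMP, with 0 at an unadjusted p under 0.05.

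Markers also differed between KO LSK and Het LSK. B cell and plasma cell markers were lower in KO LSK for 6 of 8 and higher for 0, with array means of 3.88 to 4.06 in KO LSK and 4.94 to 5.18 in Het LSK. Mast cell and basophil markers were higher for 2 of 6 and lower for 1, with array means of 5.71 to 5.73 in KO LSK and 4.81 to 5.06 in Het LSK. Erythroid markers were higher for 1 of 5 and lower for 2, with array means of 5.54 to 5.62 in KO LSK and 6.41 to 6.42 in Het LSK. Of the megakaryocyte markers 3 of 6 were higher and 1 was lower, of the stem and progenitor markers 1 of 7 was higher and 3 were lower, and of the granulocyte-monocyte markers 1 of 8 was higher and 1 was lower. Limma called 0 of the 7 mature neutrophil and monocyte markers in LSK, with 1 at an unadjusted p under 0.05. The part of these cells in the results above was not tested.

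The genotype effect was lower in GMP than in LSK for most of the 36 genes, though not in every role. The GMP effect minus the LSK effect was negative for 27 of the 36 genes (75%), against 53.4% of all rows, with a median of -0.20 against -0.02. Of the chaperones 8 of 9 were negative, of the lectin chaperones 2 of 2, of the isomerases 4 of 4 and of the translocation genes 3 of 3. The sensors and transcription factors had 4 of 6 negative. The degradation genes were evenly split, with 4 of 8 negative and a median of 0.04, as were the ATF4 targets, with 2 of 4. Edem1 (-0.73), Pdia4 (-0.67), Chac1 (-0.64), Hyou1 (-0.53) and Sec61a1 (-0.51) had the most negative values after Asns. Only Asns passed. Limma gave 8 of the 36 an unadjusted p under 0.05, and the share of all rows at that level is not given here. Subtracting array medians would move this quantity by -0.14 for every row, which adds to the negative values.

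Of the 27 genes that were higher in GMP in Het, 8 did not pass in KO. Over all rows 1721 were higher in GMP in Het and 797 in KO, so many rows that passed in Het did not pass in KO. The exact share of all rows is not given here. In KO the difference was 0.07 to 0.53 for Canx, Pdia3, Atf6, Eif2ak3, Derl1, Derl2 and Chac1, and -0.45 for Asns. Of these 8 genes, the test of the difference between genotypes passed for Asns alone.

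Further genes of the same pathways, in 4 lists drawn up beside the 36, were read in the same way. For comparison with their counts, 3.66% of all rows were higher and 2.39% lower in GMP than in LSK in KO. In Het these shares were 7.9% and 9.6%. Between genotypes, 3.45% of all rows were higher and 2.57% lower in KO in GMP, and 3.02% and 4.71% in LSK. Of 31 measured of 32 other ER folding genes, 8 were higher and 0 lower in GMP than in LSK in KO, and 20 were higher and 1 was lower in Het, with a median difference of 0.33 in KO and 0.69 in Het. Ero1a, the oxidase that recharges disulfide isomerases, was higher in GMP by 1.12 in KO and 1.95 in Het, Fkbp11, a proline isomerase of the ER, by 1.12 in KO and 2.22 in Het, and Uggt1, which tests glycoproteins for folding, by 0.88 in KO. In GMP 7 of the 31 were lower in KO than in Het and 0 were higher.

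Fkbp11 had 6.02 and 6.44 in KO GMP, against 7.98 and 7.54 in Het GMP (-1.53 ± 0.23, adjusted p = 0.00398). Pdia5, a disulfide isomerase, had 6.05 and 6.07 in KO GMP, against 7.48 and 7.28 in Het GMP (-1.32 ± 0.16, adjusted p = 0.00157). Dnajc10, a co-chaperone that reduces disulfide bonds before degradation, had 7.18 and 7.10 in KO GMP, against 8.03 and 8.06 in Het GMP (-0.90 ± 0.12, adjusted p = 0.00193). These 3 did not overlap between genotypes and passed under all alternatives run. Mogs, the glucosidase that trims the first sugar, fell by 0.68 in KO GMP, a call lost without any single GMP array (adjusted p of 0.120 to 0.218) or without Het LSK replicate 1 or 2 (0.0579). In LSK Dnajc10 fell by 0.58 in KO, a call that ended, at an adjusted p of 0.0645, without replicate 1 of KO LSK, and at 0.111 or 0.0564 without replicate 1 or 2 of Het LSK.

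Of 30 measured of 31 other translocation and glycosylation genes, 15 were higher and 0 lower in GMP in KO, and 23 were higher and 1 lower in Het, with a median difference of 0.44 in KO and 0.66 in Het. Ddost and Rpn1, of the complex that attaches sugar chains, were higher in GMP by 0.93 and 0.93 in KO and by 1.02 and 1.12 in Het. Between genotypes Srp68, of the particle that brings ribosomes to the ER, and Serp1, which stabilises the channel, fell by 0.55 and 0.49 in KO GMP. Serp1 also fell by 0.53 in KO LSK. All 3 calls were lost when single arrays were left out, with an adjusted p of up to 0.172 for Srp68 in GMP, 0.217 for Serp1 in GMP and 0.109 for Serp1 in LSK.

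Of 21 measured of 22 other degradation genes, 2 were higher in GMP in KO (Selenos by 1.06 and Ube2g2 by 0.79) and 4 were in Het (Selenos by 1.40, Ube2g2 by 1.02, Rnf5 by 0.62 and Os9 by 0.50), with 0 lower in either. Selenos recruits the extraction machinery to the ER membrane and Ube2g2 is a ubiquitin-conjugating enzyme of the same route. Between genotypes limma called 0 of the 21 in GMP and in LSK, with 4 and 1 at an unadjusted p under 0.05.

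The 29 measured of 32 other unfolded protein response genes, which are mostly signalling and stress genes, had no common direction. In KO 1 was higher in GMP (Tmbim6, a membrane protein that protects from cell death, by 0.63) and 1 was lower (Vldlr, a lipoprotein receptor, by 1.67). In Het 4 were higher and 4 lower, among them Vldlr by 3.29, Crebrf by 1.57 and Ddit4 by 1.09. Between genotypes in GMP limma called 0, with 7 at an unadjusted p under 0.05. In LSK 1 was lower in KO: Nupr1, a small stress-induced nuclear protein, had 4.88 and 5.07 in KO LSK, against 5.88 and 5.66 in Het LSK (-0.79 ± 0.13, adjusted p = 0.00570).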

How the data were processed

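Sorted GMP and LSK cells were profiled on 8 Affymetrix Mouse Gene 1.0 ST arrays after RNA amplification, per the labels. The authors deposited log2 levels summarised by RMA, per the submitters' processing notes. The RMA software and the array's genome build were not given in the sources used, and the array supplied no coordinates. RMA sets the arrays to a common distribution, which hides any change shared by all transcripts, and it gives no detection call. Of 35556 rows, 21789 carried exactly 1 symbol and were tested. 1621 rows carried several symbols and 12146 none.

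limma (version 3.58.1, R 4.3.3) was fitted with lmFit and eBayes to 8 arrays as 4 group means, with 4 residual and 4.83 prior degrees of freedom. Tests were two-sided, in 5 contrasts: GMP minus LSK in KO and in Het, KO minus Het in GMP and in LSK, and the difference of the last pair. Benjamini-Hochberg adjustment ran over the 21789 rows of 1 contrast at a time. SE is limma's standard error. The labels name 2 mice per genotype, so p-values rest on 2 arrays a group, whose number limits the precision. Groups follow the labelled genotype and sorted population.

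The members, gene lists, alternatives and naming rule were chosen with earlier results of these data known. Named were the members, and up to 4 called genes of each further pathway list per contrast. Motifs were searched in RefSeq promoter windows of GRCm38.p6, of 250 bases before to 50 after each start. The script was tested on simulated data. Alternatives were another scaling, all rows, no dim rows, an intensity trend, replicate blocks, only the groups compared, a minimum difference of 0.5, the dimmer row of a gene, and leaving out each array.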

Additional observations from a re-analysis of the deposited data

Results flagged for a closer look

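For 4 genes the difference between KO and Het was not the same in GMP as in LSK, by limma's test of that difference over all rows (2 arrays a group). They were 1 of the 36 genes, 1 of 29 other unfolded protein response genes and 2 of 31 other ER folding genes. Of the 21 other degradation genes and the 30 other translocation and glycosylation genes, 0 passed. The share was thus near that of all rows, of which 2.29% passed. The 1 among the 36 genes was Asns, whose KO effect was -2.93 in GMP and -1.39 in LSK, a difference of -1.54 ± 0.28 (SE, adjusted p = 0.0266). The levels behind it are given above. In KO they lay under the array medians in both cell types, where RMA can understate a fall. That limits the size of this difference too.

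The 3 others belong to the further pathway lists. Nupr1 had 5.37 and 5.38 in KO GMP, against 4.90 and 4.96 in Het GMP, and 4.88 and 5.07 in KO LSK, against 5.88 and 5.66 in Het LSK. Its effect was thus positive in GMP and negative in LSK, with a difference of 1.24 ± 0.18 (adjusted p = 0.00999). With replicate 1 of Het GMP left out, the adjusted p was 0.0567.

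Pdia5 had 5.56 and 5.94 in KO LSK, against 6.03 and 5.74 in Het LSK, values that overlap, while its GMP values did not. The difference of its effects was -1.18 ± 0.23 (adjusted p = 0.0372). That call was lost without any array other than KO LSK replicate 1, at an adjusted p of 0.0503 to 0.157.

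Ero1a had 8.82 and 8.69 in KO GMP, against 9.32 and 9.30 in Het GMP, and 7.68 and 7.58 in KO LSK, against 7.40 and 7.31 in Het LSK. The difference of its effects was -0.83 ± 0.16 (adjusted p = 0.0378), a call lost without any single array of the 8, at an adjusted p of 0.0542 to 0.157. Groups of 2 arrays allow no check for a single array that stands apart.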

How the results depend on the processing

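Between GMP and LSK, 19 of the 36 genes passed in KO and 29 in Het, counted in both directions. The KO count was 9 with all rows of the table tested, 7 with only the groups compared in the fit, and 6 to 19 with 1 array left out; fewer arrays lower the degrees of freedom of these fits. The Het count was 20 to 31 with 1 array left out and 25 to 31 under the other alternatives. Between KO and Het in GMP, the count of 5 became 2 with all rows, 8 with dim rows left out, and 1 to 6 with 1 array left out. With dim rows left out, Sec61a1, P4hb and Edem1 passed as well. In LSK the count of 3 became 1 with only the groups compared and 1 to 3 with 1 array left out. The test of the difference of effects, passed by 1 gene, was passed by 0 with all rows and by 0 to 1 with 1 array left out. Apart from the leave-outs already named, the call for Calr in GMP and that for Derl1 in LSK were lost with all rows, with the replicate block and with a minimum difference of 0.5, Ern1 and Ppp1r15a in GMP with all rows, and Derl1 and Edem2 in LSK with only the groups compared. No gene changed direction where it was called.

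Only LSK and GMP arrays of 1 genotype could share a mouse. Deviations of their same-numbered arrays correlated at 0.13 in Het and 0.18 in KO. Between genotypes the correlations were -0.14 to -0.03. These values do not settle whether the numbers mark mice. The labels do not tie numbers to mice, so the main fit did not pair samples. With the replicate block, the counts were 18 in KO and 30 in Het between GMP and LSK, 4 in GMP and 2 in LSK between KO and Het, and 1 for the difference of effects. A block within genotype, added after the data were seen, had a consensus correlation of 0.139 and gave 20, 31, 5, 3 and 1 in the same order. Signal near the lower end of the arrays limits what can be said of dim genes such as Derl3 and Trib3.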
